A study of Mus musculus with 8 samples.

Results

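The response of mouse blood precursors to 24 h of SOX7 induction was read by setting 2 arrays of cells cultured with doxycycline for 24 h against 2 arrays of cells cultured without it for 24 h. The samples were chosen by their titles and are 4 of the 8 in the series. The other 4 are cells with and without doxycycline at 12 h, which entered the fit and the comparison of times. All groups carried the same line, iSOX7, a derivative of the Ainv18 mouse embryonic stem cell line, and doxycycline served to switch on SOX7. FLK1+ cells taken from embryoid bodies were grown in liquid blast medium, the CD41+/CD34- cells were sorted from that culture, and these precursors were then cultured with or without doxycycline. A single line was used, and cells given doxycycline without the transgene were not analysed here. Whether replicates were separate cultures is not stated, and every p-value therefore reflects the spread among these arrays alone, possibly technical.

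SOX7 is one of the SoxF transcription factors, which bind DNA through an HMG box and are known for their part in vessel development and arterial identity. In the embryo, blood cells arise from endothelium that turns off its vascular genes, and SOX7 is expressed in the early blood and endothelial precursors of that passage. Cells that start to express CD41, the alpha chain of the platelet integrin, stand at the start of the blood program, from which erythroid, megakaryocytic and myeloid cells follow.

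Each array gave a log2 expression value for 16348 probe sets, and differences are given as log2 values with doxycycline minus without it, with their standard error from limma and 2 arrays per group. Array medians ran from 6.4 to 6.61 over the 8 arrays. Replicate 2 of the cells without doxycycline at 24 h stood apart in its spread, with 8.19 as its upper quartile and 2.355 as its SD. The other 7 arrays had upper quartiles of 8.38 to 8.57 and SDs of 2.433 to 2.517. Smooth muscle and mesenchyme markers followed the replicate number and not the treatment, with a list mean of 6.59 and 7.52 in doxycycline cells (replicates 1 and 2) and 6.79 and 7.52 in cells without it, and 0 of the 20 markers passed the test. The sorted identity was checked at 24 h: Itga2b, which encodes CD41, read 10.89 and 10.32 with doxycycline and 10.84 and 10.01 without it. Cd34, on which the cells had been sorted as negative before the culture, read 10.25 and 9.98 with doxycycline and 10.78 and 10.01 without it, among the brighter probe sets of each array. The leukocyte antigen gene Ptprc read 5.62 and 4.96 with doxycycline and 7.28 and 5.98 without it, below the array medians on 3 of the 4 arrays.

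Sox7 itself read 10.65 and 10.57 with doxycycline and 6.96 and 6.84 without it, a rise of 3.71 ± 0.16 (13.1-fold, limma adjusted p = 0.000554). The groups lay far apart and the same-numbered pairs gave 3.69 and 3.73. Whether its probe set reads the transgene, the endogenous gene or both is not given in the sources used here.

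Across all genes, the response at 24 h held more rises than falls. Of 16348 probe sets, 235 passed at a Benjamini-Hochberg adjusted p under 0.05, which is 1.44% of those tested. Of these, 145 were higher with doxycycline (0.887%) and 90 lower (0.551%). The change was at least 2-fold for 125 of the higher and 64 of the lower probe sets, and at least 4-fold for 33 and 4. In all 235 the doxycycline arrays lay on one side of the arrays without it. That holds by itself for 15.2% (higher) and 16.2% (lower) of all probe sets, and with 2 arrays against 2 an exact two-sided permutation test of a single gene cannot go below p = 0.333, so the calls rest on the spread pooled across probe sets by limma. Without replicate 2 of the cells lacking doxycycline at 24 h, 53 probe sets were called higher and 97 lower, so the excess of rises turned round. Without replicate 1 of that group 236 were called higher and 61 lower. Without replicate 1 or replicate 2 of the doxycycline cells at 24 h, 4 and 8 probe sets were called. Among the genes named here, Sox7, Aqp1, Sema7a and Clic6 kept their call in both of those fits, and Aldh1a3, Nqo1 and Fgfr3 kept it without replicate 2. All other calls of named genes were lost when an array of the doxycycline cells at 24 h was left out.

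**Figure D1:**
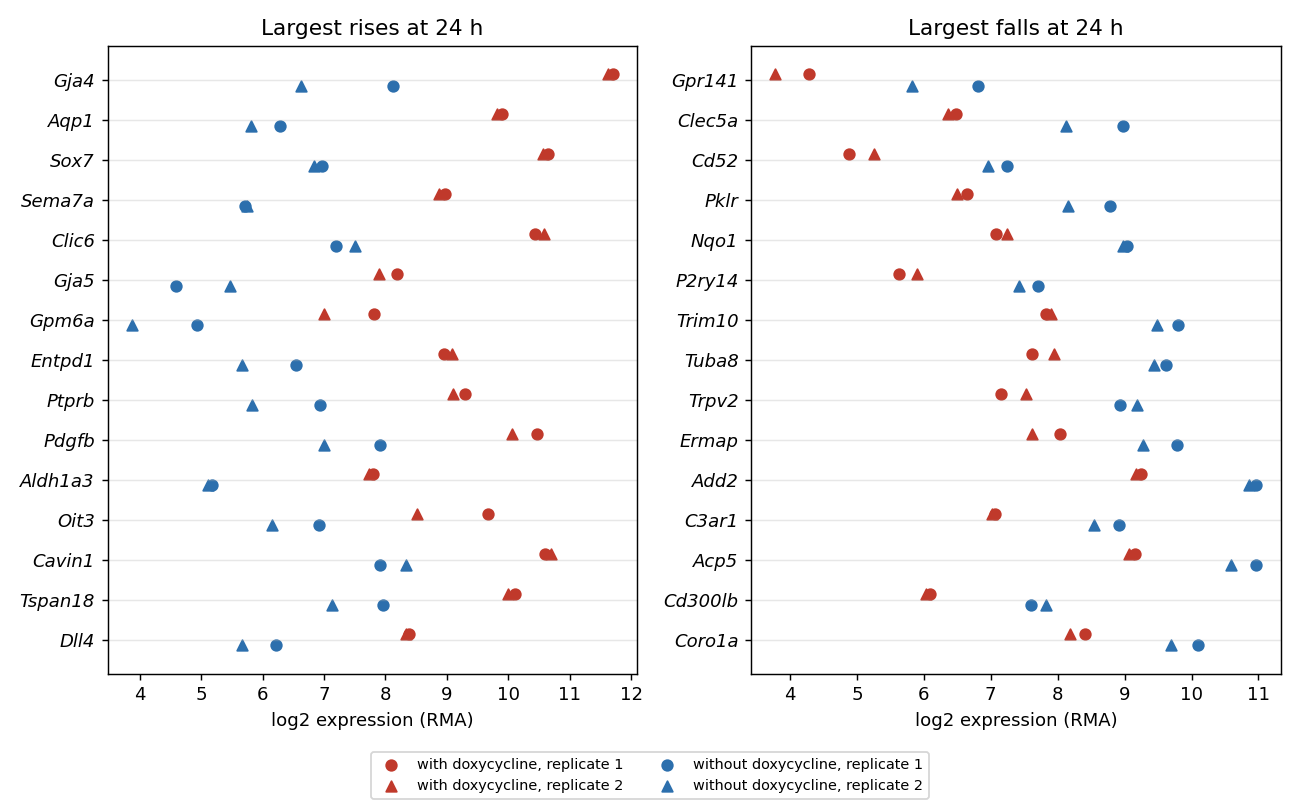
Log2 expression on each of the 4 arrays at 24 h for the 15 largest rises and the 15 largest falls among called probe sets. Red points are cells with doxycycline and blue points cells without it, circles replicate 1 and triangles replicate 2. The colours do not overlap in any row, and Gja4 has the widest gap between the 2 blue points, at 8.12 and 6.62.

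The largest rise was in Gja4, and Gja5 was also among the largest. These encode gap junction proteins of arterial endothelium. Gja4 read 11.70 and 11.62 with doxycycline and 8.12 and 6.62 without it, a rise of 4.29 ± 0.52 (19.6-fold, adjusted p = 0.0152). Gja5 read 8.18 and 7.90 with doxycycline and 4.60 and 5.47 without it, a rise of 3.01 ± 0.31 (adjusted p = 0.0102). For both genes the doxycycline arrays lay close together and the arrays without it differed by more.

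Both genes belong to a list of 19 measured arterial and Notch genes, of which 7 rose and 0 fell, beside 0.887% and 0.551% of all probe sets. Its median difference was 1.18, against -0.01 over all probe sets. This list and those below were written with earlier results of these data known, so their counts and medians describe and are no test. Notch ligands and receptors signal between neighbouring cells, and in vessels this pathway marks the arterial side. The Notch ligand gene Dll4 read 8.38 and 8.34 with doxycycline and 6.22 and 5.66 without it (2.42 ± 0.25, adjusted p = 0.0101). A further ligand gene, Jag2, read 9.21 and 8.90 with doxycycline and 7.03 and 6.45 without it (2.31 ± 0.28, adjusted p = 0.0152). The receptor gene Notch1 rose by 1.43 and the Notch target Hey1, a transcriptional repressor, by 1.94 (adjusted p = 0.0163 and 0.0138). Efnb2, the ephrin ligand that marks arteries, read 9.10 and 8.99 with doxycycline and 7.08 and 6.61 without it (2.20 ± 0.20, adjusted p = 0.00708). The groups were apart for each of these genes. Members that did not pass were also mostly above 0: the target genes Hey2 and Nrarp differed by 0.83 and 1.15 (adjusted p = 0.0595 and 0.0544), the related SoxF gene Sox17 by 0.74 (adjusted p = 0.125), and the ligand gene Jag1 by -0.01 (adjusted p = 0.996). With the replicates as a block 13 of the 19 rose and 0 fell, beside 2.39% of all probe sets called higher by that fit.

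Promoter sequences of these 2 genes, whose rises are among the largest, are shown as examples picked after their matches were seen. They come from RefSeq (GRCm38.p6) and run from 250 bases before the annotated start to 50 bases from it on, in the direction of transcription, at chr4:127313990-127314289 (minus strand) and chr3:97032152-97032451 (plus strand). Capitals mark ACAAT, a core word of SOX binding sites, in Gja4 and AGGAAG, a word that holds the ETS core, in Gja5. Other words counted below are not marked, among them the SOX word ACAAAG in Gja5.
Gja4: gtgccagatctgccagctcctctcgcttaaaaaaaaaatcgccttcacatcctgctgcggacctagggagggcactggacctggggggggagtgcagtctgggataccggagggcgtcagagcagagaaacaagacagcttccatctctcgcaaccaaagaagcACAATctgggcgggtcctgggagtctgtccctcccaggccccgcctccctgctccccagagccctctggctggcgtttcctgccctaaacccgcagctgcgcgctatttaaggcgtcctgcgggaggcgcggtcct
Gja5: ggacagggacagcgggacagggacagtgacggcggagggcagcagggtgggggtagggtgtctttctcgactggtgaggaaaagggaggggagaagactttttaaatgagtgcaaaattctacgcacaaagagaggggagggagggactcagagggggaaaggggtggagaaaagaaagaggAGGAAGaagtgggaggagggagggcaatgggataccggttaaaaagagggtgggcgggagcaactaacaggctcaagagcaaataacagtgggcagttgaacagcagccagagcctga
The word ACAAT on either strand stood in 24.1% of 108 raised genes with a promoter in the table, in 36.4% of 66 lowered genes, in 28.5% of the 11765 measured genes and in 34.4% of all 27025 genes. AGGAAG on either strand stood in 35.2% of raised, 53% of lowered, 36.7% of measured and 38.4% of all genes. Longer SOX words that contain this one were also counted. AACAAT stood in 7.41% of raised and 9.43% of measured genes. With a G at its 3′ end the shorter word, ACAATG, stood in 15.7% of raised and 11.2% of measured genes, and the longer one in 2.78% and 3.14%. A further SOX word, ACAAAG, stood in 19.4% of raised and 18.9% of measured genes. The core of sites for the Notch effector RBPJ, TGGGAA, stood in 33.3% of raised and 27.4% of measured genes. The ETS word CCGGAA stood in 9.26% of raised and 23.7% of measured genes, and the same word with a further G in 2.78% and 14.4%. Both strands were searched for 11 words in all, and the printed promoters were chosen after their matches were seen. A match describes these letters only and says nothing of binding, and distal elements were not searched.

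Most endothelial genes were above 0, and few passed. Of 29 junction and surface genes 3 rose and 0 fell, beside 0.887% and 0.551% of all probe sets. The median difference was 1.16, and 27 of the 29 differences were above 0. Ptprb, the phosphatase that acts on endothelial cadherin junctions, read 9.29 and 9.10 with doxycycline and 6.94 and 5.83 without it (2.81 ± 0.39, adjusted p = 0.0224). The tetraspanin gene Tspan18 read 10.11 and 9.99 with doxycycline and 7.96 and 7.13 without it (2.50 ± 0.28, adjusted p = 0.0127), and the adhesion molecule gene Icam2 read 8.15 and 7.66 with doxycycline and 6.48 and 6.06 without it (1.63 ± 0.30, adjusted p = 0.0496). In each of these the lower array without doxycycline was replicate 2. The same held for members that did not pass. Cdh5, which encodes the cadherin of endothelial junctions, read 11.52 and 11.37 with doxycycline and 9.95 and 8.91 without it (2.02, adjusted p = 0.0571), and the VEGF receptor gene Kdr read 11.54 and 11.27 with doxycycline and 10.23 and 9.03 without it (1.77, adjusted p = 0.0879). Esam, a junctional adhesion molecule, read 9.99 and 9.58 with doxycycline and 8.27 and 6.95 without it, which at 2.17 ± 0.45 was the largest positive difference that did not pass (adjusted p = 0.0743). The list mean was 8.75 and 8.40 with doxycycline and 7.88 and 6.99 without it. With the replicate block 16 of the 29 rose, Esam, Cdh5 and Kdr among them (adjusted p = 0.00728, 0.00795 and 0.0137). Without replicate 2 of the cells lacking doxycycline 1 of the 29 rose and the median was 0.70, and without replicate 1 of that group 7 rose and the median was 1.56. In bulk samples a change in the share of cells of a type and a change in RNA per cell cannot be told apart, here or for the blood lineages below.

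**Figure D2:**
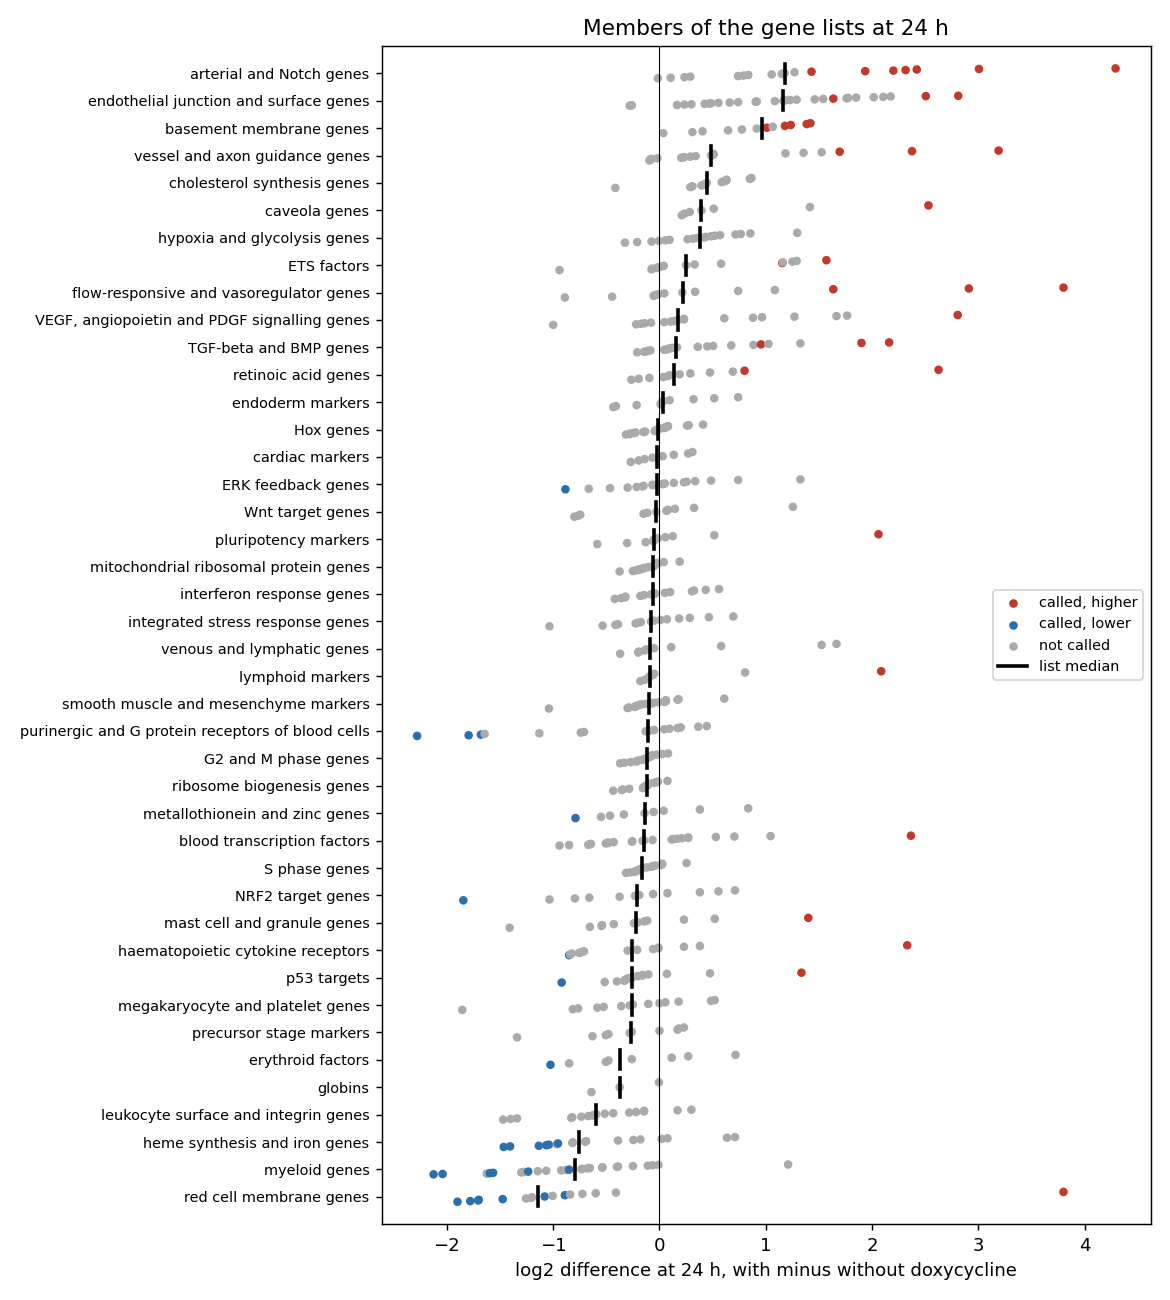
Log2 difference at 24 h, with minus without doxycycline, for every measured member of the gene lists reported here, ordered by list median (black bar). Red points were called higher, blue points called lower and grey points not called. Arterial, endothelial and basement membrane lists stand at the top with medians of 1.18, 1.16 and 0.96, and red cell membrane genes at the bottom with -1.14.

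Genes of the vessel wall matrix rose beside them. Of 12 basement membrane genes 5 rose, beside 0.887% of all probe sets, and 0 fell. All 12 were above 0 and the median was 0.96. The network collagen genes Col4a1 and Col4a2 read 9.63 and 9.91, and 9.43 and 9.67, with doxycycline, against 8.47 and 8.30, and 8.23 and 8.03, without it (1.39 and 1.42, adjusted p = 0.0152 for both). Col18a1, the precursor of endostatin, rose by 1.18, the heparan sulfate proteoglycan gene Hspg2 (perlecan) by 1.23 and the collagen-binding Sparc by 1.01 (adjusted p = 0.024, 0.0301 and 0.0334). The laminin gene Lama4 differed by 1.06 and the nidogen gene Nid1 by 0.03 (adjusted p = 0.0595 and 0.996). The 5 that rose had groups apart. None of the 12 passed without replicate 2 of the cells lacking doxycycline, where the median was 0.81, and 8 rose with the replicate block.

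Guidance, growth factor and vasoregulator genes held a few large rises each. The counts below stand beside 0.887% of all probe sets called higher and 0.551% lower. With the replicate block 2.39% were called higher. Of 19 vessel and axon guidance genes 3 rose and 0 fell, with a median of 0.48, which was 0.30 without replicate 2 of the cells lacking doxycycline. Under the replicate block 6 of the 19 rose. Sema7a, a membrane-anchored semaphorin, read 8.97 and 8.87 with doxycycline and 5.72 and 5.74 without it (3.19 ± 0.20, adjusted p = 0.00201), which is among the tightest of the large rises. Dpysl3, which relays semaphorin signals to the cytoskeleton, rose by 2.37 and the ephrin ligand gene Efna1 by 1.70 (adjusted p = 0.0165 and 0.0121), while the receptor gene Ephb4 differed by 1.52 (adjusted p = 0.0595). Not every guidance gene on the arrays went up: the semaphorin gene Sema4d, which is outside the list, fell by 1.115 (adjusted p = 0.0224). Of 19 VEGF, angiopoietin and PDGF genes only Pdgfb, the growth factor with which endothelium recruits mural cells, passed: it read 10.46 and 10.06 with doxycycline and 7.91 and 7.0 without it (2.80 ± 0.33, adjusted p = 0.0138). The ligand gene Vegfc differed by 1.66 and Vegfa by 0.17 (adjusted p = 0.071 and 0.891). Of 13 flow-responsive and vasoregulator genes 3 rose, with a list median of 0.22. The water channel gene Aqp1 read 9.89 and 9.82 with doxycycline and 6.29 and 5.82 without it (3.80 ± 0.21, adjusted p = 0.000989). Entpd1, an ectonucleotidase that removes extracellular ATP and ADP, read 8.95 and 9.08 with doxycycline and 6.54 and 5.67 without it (2.91 ± 0.33, adjusted p = 0.0127). Ece1, which processes endothelin, rose by 1.63 (adjusted p = 0.0224), whereas the flow-induced factors Klf2 and Klf4 differed by -0.04 and -0.05 (adjusted p = 0.992 for both). Among 7 caveola genes Cavin1, a coat protein of caveolae, rose by 2.53 (adjusted p = 0.0152), and Cav1 differed by 1.41 (adjusted p = 0.197). Of 10 venous and lymphatic genes 0 passed, with a median of -0.09, which was 0.32 with 1 rise without replicate 1 of the cells lacking doxycycline. Cavin1 passed neither without replicate 1 nor without replicate 2 of that group.

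Few regulators passed in the model without the replicate block, and more with it. Over all probe sets 0.887% rose and 0.551% fell without the block, and 2.39% and 1.75% with it. Of 15 ETS factors (the series title names this family), 2 rose: Ets1 read 9.86 and 9.49 with doxycycline and 8.39 and 7.82 without it (1.57 ± 0.23, adjusted p = 0.024), and Elk3 rose by 1.15 (adjusted p = 0.0409). Erg and Fli1, both prominent in endothelium and blood precursors, differed by 1.29 and 1.25 (adjusted p = 0.29 and 0.34), and the myeloid factor Spi1 by -0.94 (adjusted p = 0.277). With the replicate block 5 of the 15 rose, beside 2.39% of all probe sets, adding Erg, Fli1 and Ets2 (adjusted p = 0.0101, 0.0443 and 0.0219). Neither of the first 2 rises, Ets1 and Elk3, passed without replicate 2 of the cells lacking doxycycline. Of 24 blood transcription factors 1 rose and 0 fell, with a median of -0.15. That gene was Mecom, a zinc finger factor of stem cells and endothelium, which read 7.83 and 7.71 with doxycycline and 5.84 and 4.97 without it (2.37 ± 0.27, adjusted p = 0.0127). With the block 4 of the 24 fell, Nfe2, Cebpb, Irf8 and Ikzf1 (differences of -0.85, -0.67, -0.65 and -0.65, adjusted p = 0.0188, 0.0253, 0.0388 and 0.044). The core factors of blood emergence did not pass: Runx1 differed by 0.17, Lmo2 by 0.12, Gata2 by 0.21 and Tal1 by -0.48 (adjusted p = 0.915, 0.962, 0.936 and 0.175). Lin28a, an RNA-binding protein of early embryonic and fetal cells, rose by 2.06 (adjusted p = 0.00677) in a pluripotency list where Pou5f1, Nanog and Sox2 differed by 0.05, 0.12 and -0.05, and Ebf1, a B lineage factor, rose by 2.08 (adjusted p = 0.0179) in a lymphoid list where Pax5 and Cd79a differed by -0.10 and -0.05.

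Red cell genes were lower with doxycycline. Of 16 red cell membrane and maturation genes 7 fell, beside 0.551% of all probe sets, and 1 rose, with a median of -1.14. In 15 of the 16 the doxycycline arrays lay below the arrays without it, which held for 16.2% of all probe sets. The member that rose is Aqp1, which red cells and endothelium both express and which is also counted among the vasoregulators. Pklr, the red cell pyruvate kinase gene, read 6.64 and 6.49 with doxycycline and 8.78 and 8.15 without it (-1.90 ± 0.22, adjusted p = 0.0127). Trim10, a TRIM family gene with a role late in red cell differentiation, read 7.82 and 7.90 with doxycycline and 9.80 and 9.48 without it (-1.78 ± 0.16, adjusted p = 0.0064). Add2, which encodes an adducin of the membrane skeleton, read 9.25 and 9.17 with doxycycline and 10.96 and 10.86 without it (-1.70 ± 0.13, adjusted p = 0.0041). In these 3 genes both doxycycline arrays lay well below both arrays without it. The erythroblast membrane protein gene Ermap fell by 1.70, the blood group protein genes Kel and Rhag by 1.48 and 1.08, and the spectrin gene Sptb by 0.89 (adjusted p = 0.0359, 0.0139, 0.0193 and 0.037). The anion exchanger gene Slc4a1 and the erythropoietin receptor gene Epor, at -1.20 and -0.84, fell just short of the threshold (adjusted p = 0.0505 for both). Without replicate 1 or replicate 2 of the cells lacking doxycycline at 24 h, the list median was -0.97 and -1.33. Without replicate 1 or replicate 2 of the doxycycline cells it was -1.12 and -1.08, and the calls of these falls were lost. With the replicate block 12 of the 16 fell, beside 1.75% of all probe sets called lower by that fit.

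Of 18 heme synthesis and iron genes 6 fell, beside 0.551% of all probe sets, and 0 rose, with a median of -0.76. The enzyme genes Alad, Uros and Cpox fell by 1.13, 0.95 and 1.04 (adjusted p = 0.0483, 0.0394 and 0.0224). Steap3, the endosomal ferrireductase of erythroid iron uptake, read 7.21 and 7.59 with doxycycline and 8.76 and 8.97 without it (-1.46, adjusted p = 0.0127). The mitochondrial carriers Slc25a37, which imports iron, and Abcb10 fell by 1.40 and 1.06 (adjusted p = 0.0409 and 0.0217). Alas2, which catalyses the first step of heme synthesis in red cells, differed by -0.69, the transferrin receptor gene Tfrc by -0.39 and the heme-degrading Hmox1 by 0.71 (adjusted p = 0.179, 0.654 and 0.171). The erythroid factor gene Klf1 read 9.0 and 9.11 with doxycycline and 10.22 and 9.94 without it (-1.02, adjusted p = 0.0429), and Gata1 differed by -0.51 (adjusted p = 0.542). The globin gene Hbb-y stayed high in both groups. It read 13.77 and 13.75 with doxycycline and 13.85 and 13.68 without it, a difference of -0.00 (adjusted p = 0.996). Hba-x differed by -0.64 (adjusted p = 0.0891). The mean of the 3 measured globins was lower, at 10.28 and 10.16 with doxycycline and 10.86 and 10.25 without it. The median of 3 globins was -0.37, and 0.08 without replicate 1 of the cells lacking doxycycline. The Hbb-y readings lie at the upper end of the arrays, whose highest values were 13.60 to 13.85. Without replicate 1 or replicate 2 of the cells lacking doxycycline, the median of the 18 heme and iron genes was -0.57 and -0.92. Without replicate 1 or replicate 2 of the doxycycline cells it was -0.83 and -0.61, and the calls of these falls were lost. Klf1 lost its call in each of these fits. With the replicate block 10 of the 18 fell and 1 rose.

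The promoters of Trim10 and Kel are shown because both hold the word GATAAG, in Trim10 as its reverse complement, which the GATA factors of blood bind and which stood in a larger share of lowered than of raised genes. They lie at chr17:36869324-36869623 (plus strand) and chr6:41704276-41704575 (minus strand) in GRCm38.p6 (RefSeq), with the word in capitals.
Trim10: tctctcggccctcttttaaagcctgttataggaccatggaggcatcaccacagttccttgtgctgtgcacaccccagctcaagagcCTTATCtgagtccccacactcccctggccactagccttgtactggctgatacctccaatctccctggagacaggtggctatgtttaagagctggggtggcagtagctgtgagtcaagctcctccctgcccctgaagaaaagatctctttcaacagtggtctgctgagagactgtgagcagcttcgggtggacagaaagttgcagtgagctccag
Kel: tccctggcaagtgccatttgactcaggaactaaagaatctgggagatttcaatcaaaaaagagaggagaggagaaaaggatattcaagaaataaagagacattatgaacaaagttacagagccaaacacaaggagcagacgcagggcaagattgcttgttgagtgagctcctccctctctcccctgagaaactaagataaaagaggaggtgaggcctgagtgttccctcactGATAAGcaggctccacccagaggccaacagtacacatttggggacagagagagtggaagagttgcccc
GATAAG was found in 25.8% of lowered genes (17 of 66), 5.56% of raised genes (6 of 108), 7.38% of measured genes and 8.58% of all genes. Beside Trim10 and Kel the 17 included Pklr, Rhag, Klf1, Cpox and Uros, and also the leukocyte genes Gpr141, C3ar1 and Pilra. The word CACCC, a core of sites for KLF factors, stood in 77.3% of lowered and 77.8% of raised genes, against 64.9% of measured genes. These shares were seen before the words to show were chosen and were not tested.

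Myeloid genes were also lower with doxycycline. Of 26 measured genes 6 fell, beside 0.551% of all probe sets, and 0 rose. Of the 26, 25 were below 0, and the median was -0.79. Clec5a, a lectin receptor of macrophages and neutrophils, read 6.48 and 6.36 with doxycycline and 8.97 and 8.12 without it (-2.12 ± 0.35, adjusted p = 0.036). Cd52, a small glycoprotein of the leukocyte surface, read 4.88 and 5.25 with doxycycline and 7.25 and 6.96 without it (-2.04 ± 0.23, adjusted p = 0.0127). Ncf1, a subunit of the phagocyte oxidase, read 6.32 and 6.44 with doxycycline and 8.08 and 7.81 without it (-1.56, adjusted p = 0.0116). Doxycycline arrays were below the others in each of these. The actin regulator gene Coro1a fell by 1.59, the lipopolysaccharide co-receptor gene Cd14 by 1.23 and Csf1r, the receptor gene for a macrophage growth factor, by 0.85 (adjusted p = 0.0127, 0.0165 and 0.0412). The granule protease genes Elane and Prtn3 differed by -0.11 and -0.65 and the peroxidase gene Mpo by -0.73 (adjusted p = 0.953, 0.191 and 0.685). The mannose receptor gene Mrc1 was the member above 0, at 1.21 (adjusted p = 0.0921).

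The myeloid list mean was 6.16 and 6.04 with doxycycline and 7.19 and 6.66 without it at 24 h, and at 12 h it was 5.65 and 5.41 in doxycycline cells, against 5.85 and 5.70 in the others. The median member was 1.10 higher at 24 h than at 12 h without doxycycline and 0.52 higher with it, 2 comparisons that share arrays with the one at 24 h. Without replicate 1 or replicate 2 of the cells lacking doxycycline, the median of the 26 myeloid genes was -0.56 and -1.20. Without replicate 1 or replicate 2 of the doxycycline cells it was -1.0 and -0.71, and the calls of the falls were lost. With the replicate block 10 of the 26 fell and 1 rose. Leukocyte surface and integrin genes had a median of -0.60, and 0 of 18 passed in limma, among them Cd53 and Ly6e at -1.47 and -1.40 (adjusted p = 0.0861 and 0.065). With the block 3 of the 18 fell, beside 1.75% of all probe sets. Of 16 purinergic and G protein receptors of blood cells 3 fell, beside 0.551% of all probe sets. Gpr141, an orphan receptor, had the largest fall of all genes named, with 4.29 and 3.78 with doxycycline and 6.81 and 5.82 without it (-2.28 ± 0.38, adjusted p = 0.039). Its readings with doxycycline were dim, below the lower quartiles of those arrays (4.52 and 4.64). P2ry14, which senses nucleotide sugars, read 5.63 and 5.90 with doxycycline and 7.70 and 7.42 without it (-1.79 ± 0.18, adjusted p = 0.0101), and the complement receptor gene C3ar1 fell by 1.68 (adjusted p = 0.0165). The chemokine genes Ccl3 and Ccl9 differed by -1.81 and -1.86 without passing (adjusted p = 0.275 and 0.173). Megakaryocyte and platelet genes had 0 of 14 that passed and a median of -0.26, which was 0.42 without replicate 1 and -0.98 without replicate 2 of the cells lacking doxycycline. Their largest difference was in Pf4, a platelet chemokine, which read 7.96 and 5.86 with doxycycline and 10.05 and 7.48 without it (-1.85 ± 0.94, adjusted p = 0.565), so that the replicates of a group differed by more than the groups.

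**Figure D3:**
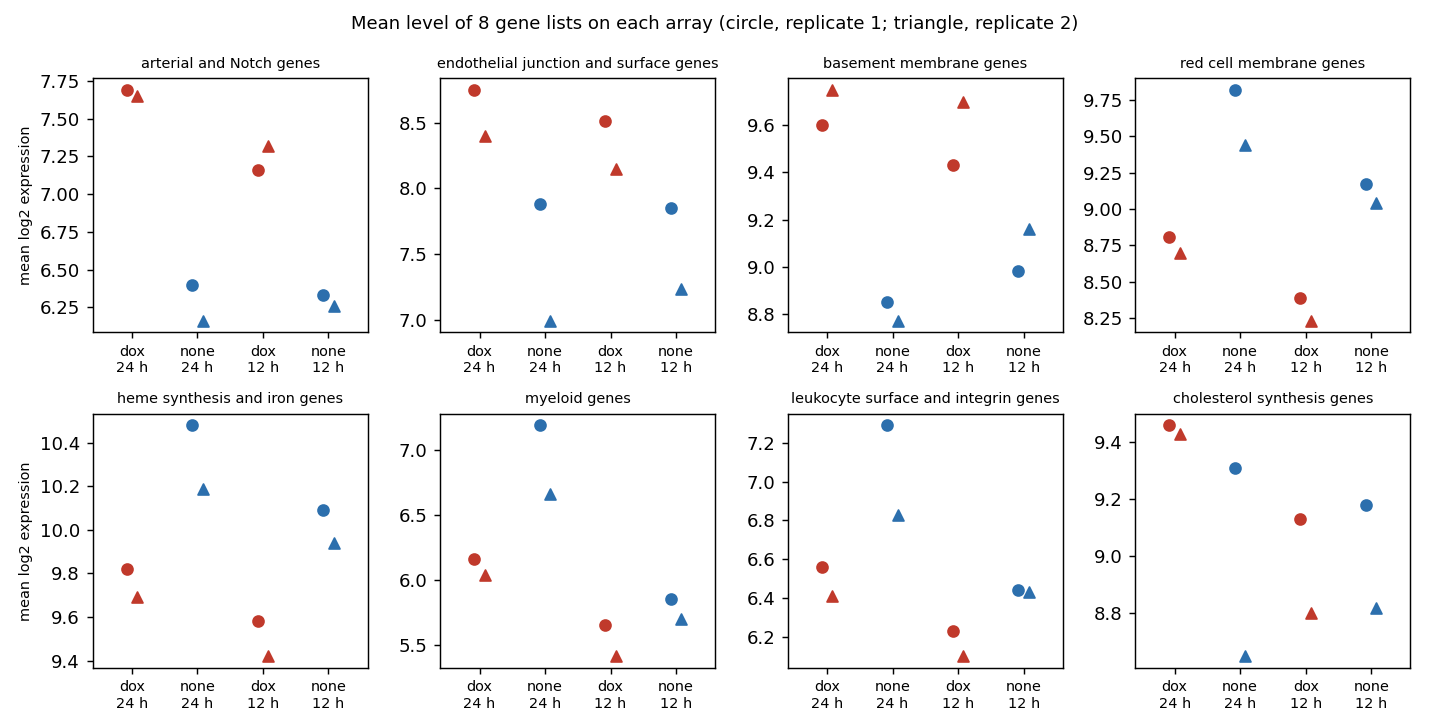
Mean log2 level of 8 gene lists on each of the 8 arrays, with doxycycline in red and without it in blue, circles for replicate 1 and triangles for replicate 2. At 24 h the myeloid mean is 6.16 and 6.04 with doxycycline and 7.19 and 6.66 without it, and the arterial mean 7.69 and 7.65 with it and 6.4 and 6.16 without it.

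Other pathways held few called genes each. Their counts stand beside 0.887% of all probe sets called higher and 0.551% lower. With the block these shares were 2.39% and 1.75%. Of 21 TGF-beta and BMP genes 3 rose: the ligand gene Bmp2 read 9.38 and 9.32 with doxycycline and 7.48 and 6.90 without it (2.16, adjusted p = 0.00761), and Ltbp1, which holds latent TGF-beta in the matrix, and the BMP effector Smad1 rose by 1.90 and 0.95 (adjusted p = 0.03 and 0.0393). Under the block 6 of the 21 rose. The targets Id1, Id2 and Id3 differed by -0.11, 0.04 and 0.88 (adjusted p = 0.941, 0.996 and 0.382). Of 12 retinoic acid genes Aldh1a3, which makes retinoic acid, read 7.80 and 7.74 with doxycycline and 5.18 and 5.11 without it (2.62 ± 0.19, adjusted p = 0.0041), and the receptor gene Rxra rose by 0.80 (adjusted p = 0.0394). Of 14 haematopoietic cytokine receptors 1 rose and 1 fell, and 11 were below 0, with a median of -0.26 that was -0.42 without replicate 2 of the cells lacking doxycycline. Lifr, the receptor for leukaemia inhibitory factor, rose by 2.33 (adjusted p = 0.0165), and Csf1r, also counted among the myeloid genes, fell by 0.85 (adjusted p = 0.0412). With the block Epor and Csf2rb fell too (adjusted p = 0.0127 and 0.0357). Outside this list the cytokine receptor gene Il9r rose by 1.33 and Il12rb2 fell by 1.14 (adjusted p = 0.0429 and 0.0466). Nqo1, a quinone reductase and NRF2 target, read 7.08 and 7.25 with doxycycline and 9.04 and 8.98 without it (-1.84 ± 0.14, adjusted p = 0.0041), in a list where the other 11 genes did not pass and where 3 of 12 fell with the block. The vesicular amine transporter gene Slc18a2 rose by 1.40, the only call among 12 mast cell and granule genes. Of those 12, 9 were below 0 (median -0.22). The p53 targets Plk2 and Btg2 moved by 1.34 and -0.92, in a list of 18 with 15 below 0 (median -0.26). Gadd45a, a further p53 target outside that list, fell by 1.215 (adjusted p = 0.0217). The zinc exporter gene Slc30a1 fell by 0.79, the only call among 9 metallothionein and zinc genes (median -0.14). Slc30a3, a zinc transporter gene outside that list, rose by 0.955 (adjusted p = 0.0446). The ERK pathway gene Phlda1 fell by 0.88, the only call among 18 ERK feedback genes (median -0.02). Adjusted p for the list members from Slc18a2 on ran from 0.0218 to 0.0487.

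Other lists had no called member. Cholesterol synthesis genes had a median of 0.45 with 12 of 13 above 0 and 0 called, with Dhcr7 and Cyp51 at 0.86 and 0.85 (adjusted p = 0.183 and 0.26). Their list mean was 9.46 and 9.43 with doxycycline and 9.31 and 8.65 without it, so the low value was again replicate 2 without doxycycline. Without that array the median was 0.18, and without replicate 1 it was 0.78. With the replicate block Dhcr7 rose (adjusted p = 0.0257), 1 of the 13, beside 2.39% of all probe sets. Hypoxia and glycolysis genes had a median of 0.38 and 0 of 18 called, with 14 above 0 and 4 below. Ndrg1 was at 0.85 (adjusted p = 0.123), and the list medians were 0.20 and 0.52 in the same 2 fits. With the replicate block 3 of the 18 rose, beside 2.39% of all probe sets. These were P4ha2, Ddit4 and Ero1a (adjusted p = 0.012, 0.0329 and 0.0488). Outside the list, 2 related genes were called without the block, in opposite directions. The glycolysis regulator gene Pfkfb4 fell by 1.025 and the hypoxia-inducible factor gene Epas1 rose by 0.79 (adjusted p = 0.039 and 0.0431). S phase, G2 and M phase, ribosome biogenesis and mitochondrial ribosome lists had medians of -0.16, -0.12, -0.12 and -0.06 with 0 called. Hox, cardiac, endoderm, Wnt target, integrated stress response and interferon lists also had 0 called, with medians from -0.08 to 0.03.

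Of the 215 called probe sets with 1 gene symbol, 149 stood in none of the 43 lists, and some of the largest changes were among them. Clic6, of the chloride intracellular channel family, read 10.44 and 10.58 with doxycycline and 7.20 and 7.50 without it (3.16 ± 0.16, adjusted p = 0.000983). Gpm6a, a membrane glycoprotein best known from neurons, rose by 3.01 ± 0.53, and Oit3, a secreted protein with a zona pellucida domain, by 2.56 ± 0.42 (adjusted p = 0.0442 and 0.0359). Acer2, a ceramidase of the Golgi, rose by 2.33 (adjusted p = 0.0379), while a second and dimmer probe set of the gene differed by 0.24 (adjusted p = 0.894). Further genes were picked from this set after their values were seen, for what they are known to do. The growth factor gene Igf1 read 7.58 and 7.42 with doxycycline and 5.74 and 5.11 without it (2.07 ± 0.30, adjusted p = 0.0249). The coagulation inhibitor gene Tfpi rose by 1.85, the cholesterol exporter gene Abca1 by 1.82, the Wnt agonist gene Rspo3 by 1.66, the Wnt co-receptor gene Adgra2 by 1.60 and the vascular protein gene Heg1 by 1.13 (adjusted p = 0.0393, 0.0178, 0.0377, 0.00535 and 0.0428). A second probe set of Heg1 differed by 0.33 (adjusted p = 0.382). On the falling side, Acp5, the tartrate-resistant acid phosphatase of macrophages and osteoclasts, read 9.16 and 9.06 with doxycycline and 10.97 and 10.59 without it (-1.67 ± 0.19, adjusted p = 0.0127). The cation channel gene Trpv2 and the tubulin gene Tuba8 fell by 1.71 and 1.75, and the leukocyte receptor gene Cd300lb by 1.64 (adjusted p = 0.0326, 0.0169 and 0.0127). The phagocyte receptor genes Sirpa, Fcgr4 and Cxcr2 fell by 1.32, 1.24 and 1.29, and the erythroid genes Dmtn and Tmem14c by 0.91 and 1.04 (adjusted p from 0.0193 to 0.0439). Fcgr4 was dim: it read 3.70 and 3.66 with doxycycline, below the lower quartiles of those arrays (4.52 and 4.64).

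Same-numbered replicates were then compared as pairs, replicate 1 with replicate 1 and replicate 2 with replicate 2. In both pairs 167 probe sets were at least 2-fold higher with doxycycline (1.02% of those tested) and 92 at least 2-fold lower (0.563%). In pair 1 alone 280 were at least 2-fold higher and 389 lower, and in pair 2 alone 481 were higher and 223 lower, so the pairs leaned in opposite directions. The median difference over all probe sets was -0.06 in pair 1 and 0.06 in pair 2. Across the 16348 probe sets the pair differences correlated with r = 0.474, a description over probe sets that share arrays and are not independent. Among the 145 called rises the median was 1.35 in pair 1 and 1.60 in pair 2, and 108 were larger in pair 2. Among the 90 called falls the median was -1.34 in pair 1 and -1.07 in pair 2, and 76 were larger in pair 1. The endothelial list had a median of 0.87 in pair 1 and 1.44 in pair 2, the myeloid list -1.0 in pair 1 and -0.60 in pair 2, and the arterial list 1.13 and 1.22.

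The called genes whose pairs lay farthest apart were Gja4, at 3.58 in pair 1 and 5.00 in pair 2, Gja5 at 3.58 and 2.43, Entpd1 at 2.41 and 3.41, Acer2 at 1.86 and 2.81, and Ptprb at 2.35 and 3.27. Gja5 is the one of these 5 with the larger difference in pair 1. In contrast the pairs of Aldh1a3 were 2.62 and 2.63, those of Add2 -1.71 and -1.69, and those of Sema7a 3.25 and 3.13. With the replicate number as a block in the same model, 677 probe sets passed (4.14%), 391 higher and 286 lower. These held all 145 rises and all 90 falls, and 160 of the 167 and 87 of the 92 probe sets that changed 2-fold in both pairs. Of the genes with large differences that had not passed, Rapgef5, an exchange factor for Rap proteins, and the endothelial genes Cd93 and Myct1 rose with the block (adjusted p = 0.00401, 0.0139 and 0.0319), and Cytip, Cldn13, Ccl9 and Ccl3 fell (adjusted p = 0.0172, 0.00491, 0.00935 and 0.0283). Tmem255a and Pf4 did not pass (adjusted p = 0.0846 and 0.0544).

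**Figure D4:**
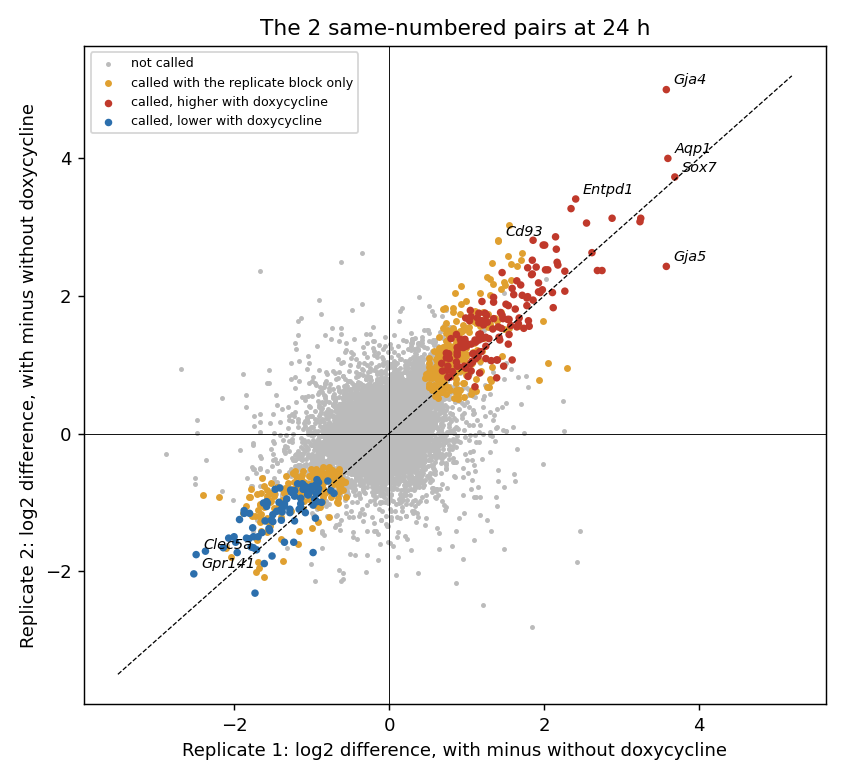
Log2 difference, with minus without doxycycline, in replicate 1 (x) against replicate 2 (y) for every probe set at 24 h. Red and blue points passed in the fit without the block, orange points only with the replicate block and grey points in neither. The dashed line marks equal differences. Gja4 lies above it, at 3.58 and 5.00, and Gja5 below it, at 3.58 and 2.43.

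The response at 24 h was finally set against that at 12 h, whose differences come from other arrays of the same design. Both sets of calls come from the same fit, which gives a probe set the same standard error at both times. The calls at the 2 times are therefore not independent. At 12 h 151 probe sets passed (0.924%), 97 of them higher (0.593%) and 54 lower (0.33%). Of the 145 rises at 24 h, 61 had also passed at 12 h and 143 had the same sign there, and of the 90 falls 34 and 85. The median of the 145 was 1.43 at 24 h and 1.12 at 12 h, and that of the 90 was -1.20 and -0.88. The members were chosen at 24 h, so a larger size at that time is in part set by the choice and is given without a test. Over all probe sets the 2 sets of differences correlated with r = 0.600, as a description. The difference of the effects itself, tested for each probe set, passed in limma for 0 of 16348 (0.0%), with 505 at an unadjusted p under 0.05, so no gene is shown to respond differently at the 2 times.

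The 5 genes with the smallest p for that difference in each direction, Gja5 among them, are given here by their values, together with Aldh1a3, which is named for its rise at 24 h. Fgfr3, a fibroblast growth factor receptor, read 8.86 and 8.62 with doxycycline and 6.74 and 6.79 without it at 24 h, and at 12 h 7.26 and 7.25 in doxycycline cells, against 7.13 and 6.90 in the others, a difference of effects of 1.74 ± 0.21 (unadjusted p = 5.62e-05, adjusted p = 0.919). Gja5 differed by 3.01 at 24 h and 0.53 at 12 h, where its arrays read 5.31 and 5.70 with doxycycline and 5.21 and 4.74 without it (adjusted p of the difference 1.0). The receptor gene Gpr83 differed by 2.08 at 24 h and 0.67 at 12 h, and the lipoprotein gene Apoe by 0.82 and -0.40. Cd14 differed by -1.23 at 24 h and 0.30 at 12 h, with 4.93 and 4.64 with doxycycline and 4.44 and 4.52 without it at 12 h, and Fcgr4 by -1.24 and 0.09. For both of these the arrays with doxycycline were nearly level over time while those without it were higher at 24 h. Fcgr4 was dim, below 4 on every array but those without doxycycline at 24 h. Aldh1a3 and the peroxisomal enzyme gene Ehhadh differed more at 12 h, with 2.62 at 24 h and 4.02 at 12 h, and with 1.30 and 2.37. Olfr969, Svs2 and Defb10, which also stand among the 10 smallest p-values, read below 4 on all 8 arrays, near the dim end where the values are least certain.

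**Figure D5:**
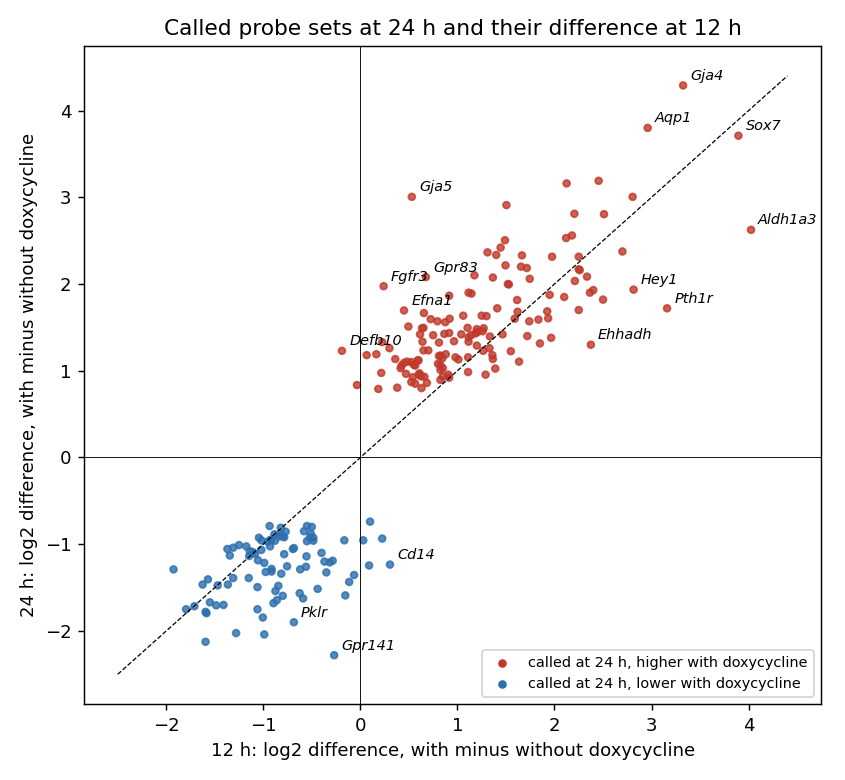
Log2 difference with minus without doxycycline at 24 h (y) against 12 h (x) for the 235 probe sets called at 24 h, red for higher and blue for lower. The dashed line marks equal differences. Gja5 and Fgfr3 lie far above it, at 3.01 and 1.98 at 24 h against 0.53 and 0.24 at 12 h, and Aldh1a3 below it.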

How the data were processed

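Gene expression was measured on Affymetrix mouse arrays, 8 in all, in 4 groups of 2. The deposited values are log2 expression per probe set, made by the authors with RMA in Affymetrix Power Tools per the submitters' processing notes. Versions, genome build, annotation and any filter are not given in the sources used here. RMA normalizes arrays to each other and compresses differences of dim probe sets. Of 16348 probe sets, 14785 carry 1 gene symbol in the platform annotation, 950 several and 613 none. Precision is limited by how few arrays there are.

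All 8 arrays entered 1 limma 3.58.1 model (R 4.3.3) with a mean per group, lmFit and eBayes, with Benjamini-Hochberg adjustment over all probe sets at 0.05. The script was run on simulated data with 200 changed probe sets. Those arrays were drawn independently, with the same spread in every group. The simulation therefore cannot give the error rate of the calls made here. Same-numbered arrays deviated together at 24 h (r = 0.428 over probe sets, and 0.298 to 0.428 over all pairs of groups). The labels do not say what a number shares, and the model without the block is the main one. Named genes are Sox7, the 15 largest called rises and falls with 1 symbol and groups apart, 5 called genes with pairs farthest apart, the 5 largest uncalled differences in each direction, the 5 smallest p-values in each direction for the difference between times, and up to 6 members of each list by p. Other list members are named for their role, and called genes outside the lists were picked after their values were seen. The members and lists were chosen with earlier results of these data known. The result of 1 list is not reported here. Alternatives were repeated quantile normalization, centring, an intensity trend, a filter on the dimmest 33.3% of probe sets, a single probe set for each gene, array weights, the replicate block, only the 24 h arrays and each array left out. Promoter sequences are RefSeq's.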

Additional observations from a re-analysis of the deposited data

How the results depend on the processing

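Each of the 78 called named genes kept its direction under each alternative, and the counts of calls moved. At 24 h, 415 probe sets passed with repeated quantile normalization (232 higher, 183 lower), 349 with centring (183 and 166), 367 without the dimmest 33.3% (222 and 145), 18 with array weights (15 and 3) and 126 with the 24 h arrays alone (88 and 38). Calls higher made up 61.7% in the main model, 55.9% after repeated quantile normalization and 52.4% after centring. The replicate block gave 677 calls (391 higher, 286 lower), and no called gene was lost. With the block on the 24 h arrays alone, an alternative chosen after seeing the data that leaves 1 residual degree of freedom, 1236 passed (672 and 564). Leaving out each array gave 4 to 297 calls (4 to 236 higher, 0 to 97 lower). Such a model assumes that the lone array of a group varies like the other groups. Why the counts move was not tested beyond that. Repeated quantile normalization lost Gpm6a, Trpv2, Hspg2 and Ece1 among the called named genes (adjusted p = 0.0616, 0.0511, 0.0714 and 0.0511), and array weights lost 66 of 78. The difference between times had 0 calls in every setting.

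List medians moved most when an array was left out. First come lists whose median moved by more than the SD of their level between arrays of a group at 24 h. Their ranges were 0.79 to 1.09 for basement membrane, -0.11 to 0.32 for venous, -0.25 to -0.05 for blood transcription factors, -0.72 to 0.08 for globins, -1.20 to -0.56 for myeloid, -0.49 to -0.15 for mast cell, -0.42 to -0.14 for cytokine receptor, -0.46 to -0.11 for purinergic, 0.16 to 0.51 for TGF-beta and -0.34 to -0.06 for metallothionein genes. They were -0.34 to 0.28 for interferon, -0.27 to -0.01 for S phase, -0.29 to 0.05 for G2 and M phase, -0.22 to 0.03 for mitochondrial ribosome, -0.22 to 0.15 for cardiac and -0.12 to 0.21 for endoderm genes. Some other lists ranged widely but stayed within that SD. They included megakaryocyte genes (-0.98 to 0.42), smooth muscle and mesenchyme markers (-0.50 to 0.41) and endothelial junction and surface genes (0.70 to 1.56). Without the dimmest 33.3%, the mast cell median was -0.10 and the lymphoid median 0.35. The cause was not tested.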
